A study of Mus musculus with 23 samples.

Results

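Spp1 encodes osteopontin, a secreted phosphoprotein of bone and of inflamed tissue. It is described here across 23 mouse RNA-seq libraries as 1 of the 19945 genes in the table of normalized counts, chosen by its symbol with its levels already known. Its own levels are therefore given as a description, with fitted differences and standard errors but without p-values. The study follows transferred group 2 innate lymphoid cells (ILC2s) from culture into blood and brain of mice with stroke. ILC2s are lymphocytes without antigen receptors that answer the alarm cytokine IL-33 with type 2 cytokines.

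Per the labels, all 4 groups derive from male B6.Cg-Tg(CAG-GFP)Smoc donors of 8 to 10 weeks, transgenic and wild-type, given IL-33 into the peritoneum every 2 days for 7 days. Marrow and spleen cells lacking CD11b, Gr1, CD3ε, CD45R/B220 and Ter119 but carrying CD25 were taken by magnetic sorting (MACS). They were kept for 14 days with IL-7, IL-33, IL-2 and IL-15 and sorted by flow cytometry as CD45+Lin-ST2+KLRG1+CD127+. Recipients had their middle cerebral artery occluded (MCAO, an ischemic stroke model) and got the cells by an intravenous route 6 hours later. The 3 recovered groups of 6 libraries each are blood at day 1, blood at day 5 and brain at day 5. The culture baseline (5 libraries) was taken straight from culture. The sources used here do not say whether the baseline passed the last sort, which gate was used at recovery or whether each library is a separate animal. The p-values below therefore measure only the spread between libraries, which may be technical.

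Osteopontin carries an RGD motif that binds integrins and a second site, exposed by cleavage, that binds other integrins, and it is also a ligand of CD44. Thrombin and matrix metalloproteinases cut it, and the kinase Fam20c phosphorylates it. In the injured brain it is known as a product of activated microglia and infiltrating macrophages, while in lymphocytes it is known from activated T cells and from natural killer cells and other innate lymphoid cells.

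Spp1 lies on chromosome 5 at chr5:104435118-104441050 on the plus strand (GRCm38/mm10, GENCODE M21, ENSMUSG00000029304.14), is protein coding and has 1648 bp of merged exon sequence. An unprocessed transcript model, Gm42793, overlaps its first part on the same strand and is not analysed here, so reads of that overlap cannot be told apart. The RefSeq promoter window of Spp1 is shown because the Spp1 promoter is a known target of RUNX factors, among the factors described further on. It is the 250 bases before the transcript start, GRCm38.p6 chr5:104434861-104435110 on the plus strand, 5′ to 3′, with motif matches in capitals.
Spp1 promoter: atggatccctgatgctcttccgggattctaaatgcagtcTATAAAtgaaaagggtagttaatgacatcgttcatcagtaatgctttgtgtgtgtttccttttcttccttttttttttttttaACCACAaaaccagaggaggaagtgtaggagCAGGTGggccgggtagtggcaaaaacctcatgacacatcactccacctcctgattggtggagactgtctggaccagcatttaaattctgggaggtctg

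A set of 5 motifs was searched on both strands. TATAAA began 211 bases before the start, and 12.4% of the 32851 promoter windows of the same length held it. The RUNX core ACCACA began 128 bases before the start, against 14.0% of windows. The pattern CANGTG, which is narrower than the general E-box CANNTG, began 98 bases before the start, against 39.5% of windows. The letters matched are CAGGTG, which is not the CACGTG or CATGTG form known for MITF. The AP-1 motif TGANTCA and the STAT motif TTCNNNGAA had no match in this window, and 6.75% and 7.02% of windows held them. A second RefSeq start of Spp1, at position 104436192, has a window with a match to none of the 5 motifs as written here. Other forms of the E-box were not searched.

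Recovered reads per library numbered 11606756 to 16935503 in the 12 libraries of batch 1 and 27796934 to 58059558 in the 11 libraries of batch 2. Every group had 3 libraries in batch 1 and 3 in batch 2, except the baseline, which had 2 in batch 2. Libraries that stood apart from their group, by the median correlation of log2 values across genes, were blood day 1 replicates 2 (0.833) and 6 (0.874), brain replicate 2 (0.864) and baseline replicate 5 (0.881). Baseline replicates 1 to 3, and brain replicates 1 and 3, were closer to each other than other libraries of a group. Their chi-square per degree of freedom was 4.19 to 12.5 in 4 pairs, against 45.0 to 1300 in the other 51 pairs. All libraries were used, and the Spp1 means without them or with the closest ones averaged are given with the levels.

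Spp1 was among the genes with most reads in the cultured cells and in the brain libraries, and ranked between place 903 and place 7334 in the blood libraries. In the culture baseline its normalized count (reads divided by a size factor of the library) was 137829.4, 129268.8 and 131214.7 in the batch 1 libraries, replicates 1 to 3. It was 378054.1 and 956221.4 in the batch 2 libraries, replicates 4 and 5. The batch 1 libraries were nearly alike, and both batch 2 libraries lay above them. The mean was 346518 ± 357014 (SD, n = 5), or 194092 without replicate 5 and 489015 with replicates 1 to 3 averaged into 1. Spp1 ranked between place 2 and place 10 among all genes there and took 0.551% to 3.52% of the reads.

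In blood on day 1 the normalized count of Spp1 was 574.5, 7068.3, 921.8, 833.1, 1489.8 and 943.3 in replicates 1 to 6 (lowest 574.5, median 933, highest 7068.3). Replicate 2 stood far above the others. The mean was 1972 ± 2515 (SD, n = 6), and 953 ± 334 (SD, n = 5) without replicate 2. Spp1 held 0.00284% to 0.0155% of the reads, from 439 to 3032 reads per library.

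In blood on day 5 Spp1 had 479.7, 256.8, 279.6, 321.2, 412.4 and 482.3 in replicates 1 to 6 (lowest 256.8, median 367, highest 482.3). No library stood apart, and the mean was 372 ± 99.8 (SD, n = 6). The share of reads was 0.00127% to 0.0026%, from 177 to 899 reads per library. This was the group with the narrowest spread: the SD of log2 values was 0.40, against 1.28 in the baseline, 1.28 in blood on day 1 and 1.52 in brain.

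In brain on day 5 the normalized count of Spp1 was 103582.3, 492280.6, 106968.7, 67182.5, 22426.3 and 226861.6 in replicates 1 to 6 (lowest 22426.3, median 105276, highest 492280.6). Replicates 2 and 6 were the highest and replicate 5 the lowest. The mean was 169884 ± 171949 (SD, n = 6), 105404 without replicate 2, and 182805 with replicates 1 and 3 averaged. Spp1 ranked between place 6 and place 87 among all genes and took 0.0943% to 1.71% of the reads.

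**Figure D1:**
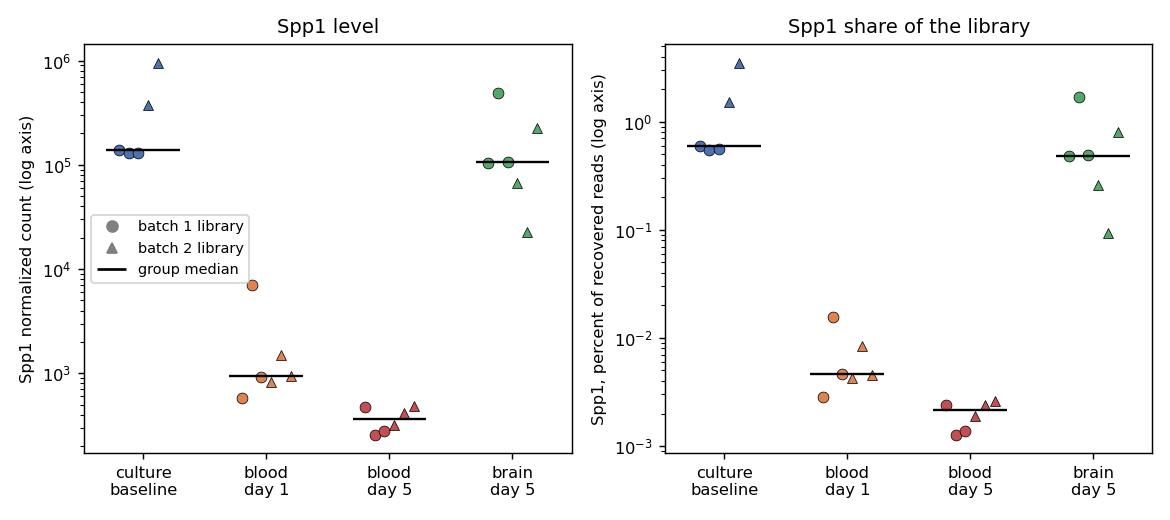
Spp1 in each library, as normalized count (left) and as percent of recovered reads (right), both on log axes; circles are batch 1 libraries, triangles batch 2, and lines group medians. Baseline and brain libraries lie between 22426.3 and 956221.4 normalized counts, and all 12 blood libraries between 256.8 and 7068.3.

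The order of the group means was baseline, brain on day 5, blood on day 1 and blood on day 5. The baseline and the brain were the only neighbours in this order whose libraries overlapped. The lowest brain library was 3.17 times the highest blood day 1 library. The lowest blood day 1 library, 574.5, lay above the highest blood day 5 library, 482.3, by a factor of 1.19.

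Libraries from blood on day 1 held less Spp1 than the baseline libraries. The ratio of the baseline mean to the blood day 1 mean was 176, and the fitted log2 difference of blood day 1 minus baseline was -7.57 ± 0.69 (SE). This difference comes from a linear model of log2(normalized count + 1) with group and batch over all 23 libraries. The ratio was 46.5 in batch 1, which holds blood day 1 replicate 2, and 613 in batch 2. For blood on day 5 the ratio of the baseline mean to the blood mean was 931, with a fitted log2 difference of -9.40 ± 0.69 (SE), and the ratio was 392 in batch 1 and 1646 in batch 2.

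Between the blood days Spp1 was lower on day 5 in both batches. The fitted log2 difference of day 5 minus day 1 was -1.82 ± 0.65 (SE). The ratio of the day 1 mean to the day 5 mean was 5.30, and 2.56 without blood day 1 replicate 2. It was 8.43 in batch 1 and 2.69 in batch 2.

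Brain libraries held more Spp1 than blood libraries of either day. The fitted log2 difference was 6.44 ± 0.65 (SE) against blood on day 1 and 8.26 ± 0.65 (SE) against blood on day 5, and the ratios of means were 86.2 and 457. Every brain library lay above every blood library in both batches.

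Brain and baseline could not be ordered across batches. The fitted log2 difference of brain minus baseline was -1.13 ± 0.69 (SE). In batch 1 the groups overlapped, with a mean of 234277 in brain and 132771 in the baseline, and the difference of mean log2 values was 0.41. In batch 2 they did not overlap, with 105490 in brain and 667138 in the baseline, and the difference was -3.10. The batch 2 baseline rests on 2 libraries, and the batch 1 baseline on 3 that were nearly alike. Brain replicates 1 and 3, also of batch 1, were another close pair. The SE counts all of these as separate libraries. With the closest libraries averaged, the fitted log2 difference was -1.71.

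In bulk libraries a smaller share of cells that carry a transcript and less of it per cell cannot be told apart. Markers of the labelled cell type were uneven across the groups. Over 10 ILC2 markers the summed normalized count was 72121 to 106700 in the baseline, 15062 to 41587 in blood on day 1, 40448 to 52864 in blood on day 5 and 2026 to 4390 in brain. Among them, the mean in brain was 9.40 for Klrg1, 13.3 for Gata3, 56.1 for Il1rl1 (the IL-33 receptor ST2) and 90.6 for Il7r (CD127), while Ptprc (CD45) had 1595 and Rora 1049. Ptprc and Rora made most of the mean sum in brain, and neither is particular to ILC2s. None of the 10 was at 0 in every brain library. In the baseline, Klrg1 had a mean of 23914 and Ptprc 16277, but Il1rl1 had 3 reads over the 5 libraries, Il7r a mean of 24.5 and Gata3, the factor that specifies ILC2s, 315. The sum of 8 T cell markers was 82114 to 299084 in the baseline, with a mean of 89061 for Cd3g and 7843 for Trac, and 119 to 418 in brain. The baseline libraries are therefore named by their origin in the labels, since the ILC2 markers Il1rl1 and Il7r were near 0 in them.

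Markers of other cells also differed between the groups. The median sums of the first 3 lists that follow were lowest in the baseline and highest in the brain. Over 10 microglia markers the sum was 2628 to 8008 in the baseline, where Sall1 was at 0, 4574 to 49311 in blood on day 1, 7770 to 12191 in blood on day 5 and 121928 to 456524 in brain. Over the 10 monocyte and macrophage markers in the table of 12 listed, it was 5545 to 30209 in the baseline and 66507 to 242799 in brain, with 12251 to 25934 and 16201 to 29109 in blood on days 1 and 5. Over 8 choroid plexus markers it was 1.83 to 432 in the baseline, where Clic6, Otx2 and Prlr were at 0, and 429916 to 2267960 in brain. Blood day 1 replicate 2, the blood library with most Spp1, also had the most of the microglia markers (49311) and of the choroid plexus markers (69924) among the blood libraries. Of its microglia sum, 38632.6 came from P2ry12, a gene known from microglia and also from platelets. Siglech and Sall1 were at 0 in it, and the rest of the sum came from other microglia markers, not given singly here. Its oligodendrocyte (99098.5), endothelial (53537) and neuron (9895) marker sums were also the highest of the blood libraries. Spp1 was high in the baseline, with microglia sums of at most 8008, and in brain, with sums of at least 121928. The part of these cells in the Spp1 level of any group was not tested.

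Within the brain the marker sums did not follow the order of Spp1 throughout. Replicate 2, highest in Spp1, had a microglia sum of 193920 and the highest choroid plexus sum. Replicate 6, second in Spp1, had the highest microglia sum, 456524, and the lowest choroid plexus sum, 429916. Replicate 5, lowest in Spp1, had a microglia sum of 187741, close to that of replicate 2. The monocyte and macrophage sum was 141629 in replicate 5, 117330 in replicate 2 and highest in replicate 6, at 242799.

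**Figure D2:**
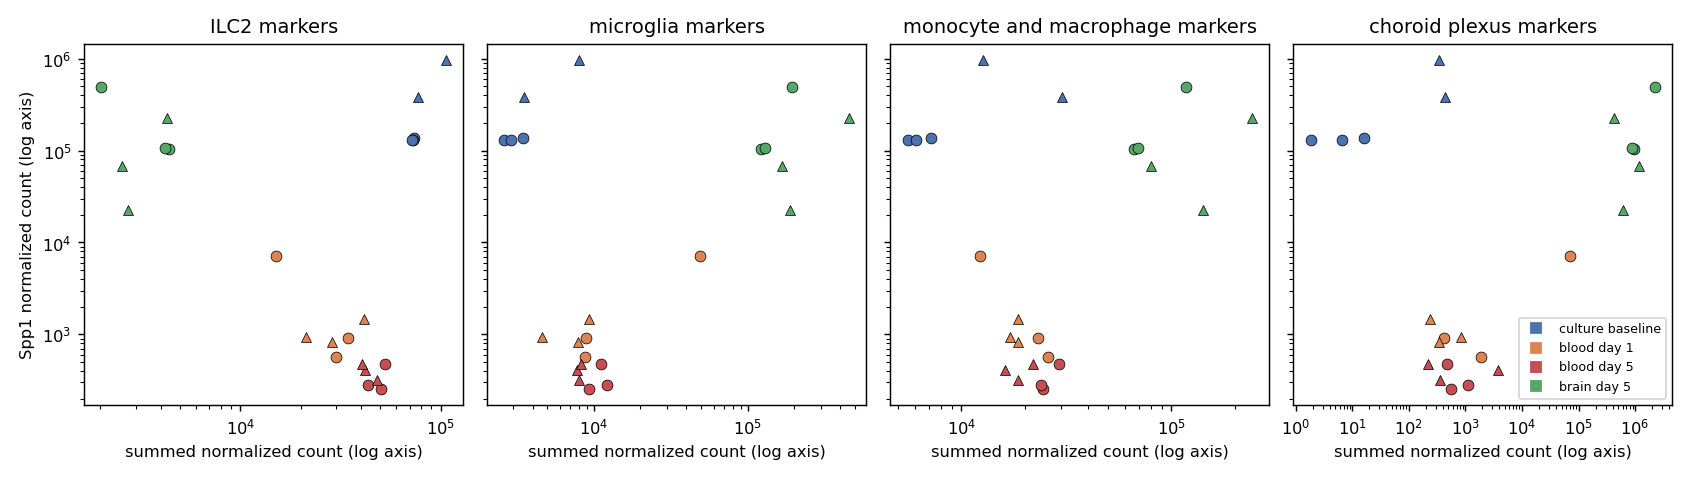
Spp1 normalized count against the summed normalized count of ILC2, microglia, monocyte and macrophage, and choroid plexus markers, 1 point per library, all axes logarithmic; circles are batch 1 and triangles batch 2. Baseline libraries combine high Spp1 with ILC2 sums of 72121 to 106700, and brain libraries combine high Spp1 with ILC2 sums of 2026 to 4390 and microglia sums of 121928 to 456524. Most of the ILC2 sum in brain came from Ptprc and Rora, which are not particular to ILC2s.

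The receptors of osteopontin are CD44 and a group of integrins, αvβ1, αvβ3, αvβ5, αvβ6, α5β1 and α8β1 for the RGD motif and α4β1 and α9β1 for the site exposed by cleavage. The list holds 10 genes, all in the table, and 9 entered the test. Itgb6 did not pass the filter on low values, with no more than 2 reads in any of the other groups and 277 reads over the brain libraries. A gene is said to rise or fall where its limma adjusted p, over all 15268 genes tested, was under 0.05.

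From culture to blood on day 1, 3 of 9 receptor genes rose and 2 fell, where 18.1% of all genes tested rose and 14% fell. Their median log2 difference was 0.66, against 0.04 over all genes tested. Itgb5, the β chain of αvβ5, had 7.31 to 268 in the baseline and 2771 to 55772 in blood on day 1, with no overlap, and rose by 7.34 ± 0.76 (SE, adjusted p = 1.01e-07). Itga4, the α chain of the lymphocyte homing integrin α4β1, had 0 to 316 and 557 to 5719, and rose by 5.87 ± 0.98 (adjusted p = 6.41e-05). Itga5, the α chain of the fibronectin receptor, rose by 5.29 ± 0.70 (adjusted p = 3.04e-06). Itga9 fell from a mean of 408 to 42.4, with a log2 difference of -4.25 ± 1.06 (adjusted p = 0.00343). Itgav, the shared αv chain, fell from 3131 to 398, with a log2 difference of -3.76 ± 0.99 (adjusted p = 0.00555), although its groups overlapped. Cd44 (0.66 ± 0.45, adjusted p = 0.284), Itgb1 (-0.18 ± 0.46, adjusted p = 0.81) and Itgb3 (-0.51 ± 0.58, adjusted p = 0.549) did not pass. The calls of Itgav and Itga9 were lost in 2 and 1 of 23 alternatives, with adjusted p from 1.12e-04 to 0.0717 and from 1.39e-04 to 0.0593.

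In blood on day 5 against the baseline, 3 of 9 receptor genes rose and 1 fell, where 19.6% of all genes rose and 11.4% fell (3664 rose and 1168 fell with equal library totals, against 3000 and 1748). Between the blood days no receptor gene passed in limma, where 0.0982% of all genes rose and 0.00655% fell from day 1 to day 5. None of the 9 had an unadjusted p under 0.05, and edgeR and DESeq2 called 0 as well. Markers of blood cells also differed between culture and blood on day 1. The platelet sum was 72.6 to 9764 in the baseline and 72209 to 2320400 in blood on day 1, the B cell sum 120 to 4369 and 49785 to 108323, and the erythroid sum 244 to 101725 and 162131 to 1695660. Their part in the receptor counts was not tested.

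From the baseline to the brain, 4 of 9 receptor genes rose and 3 fell, where 37.5% of all genes rose and 11.7% fell (5050 rose and 2628 fell with TMM scaling, against 5733 and 1780). The median was -0.73, against 0.67 over all genes. Cd44 had 1809 to 3815 in the baseline and 403 to 1221 in brain, without overlap, and fell by 2.02 on the log2 scale (SE 0.45, adjusted p = 6.37e-04). Itgb3, the β chain of αvβ3, had 4782 to 16307 and 203 to 1469, and fell by 3.64 (SE 0.58, adjusted p = 1.31e-05). Itgb1 fell by 1.25 (SE 0.46, adjusted p = 0.0264), a call lost in 4 of 23 alternatives (adjusted p 0.00306 to 0.118), among them those without baseline replicate 5, brain replicate 2 or brain replicate 4.

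Itgb5 rose by 9.79 ± 0.76 (adjusted p = 2.44e-10) to 19406 to 67209 in brain, and Itga5 by 6.92 ± 0.70 (adjusted p = 1.54e-08). Itga8, a chain known from mesenchymal cells, had 1 read over the baseline libraries and 3121 over the brain libraries. The ratio of its read rates was 1822 (95% counting interval, exact Clopper-Pearson, 327 to 72000), and its adjusted p was 3.20e-06. Itga4, with 0 to 316 in the baseline and 29.0 to 327 in brain, rose with overlapping groups (SE 0.98, adjusted p = 0.0475), and this call was lost in 15 of 23 alternatives (adjusted p 0.00666 to 0.617). Itgav and Itga9 did not pass (-1.28 ± 0.99, adjusted p = 0.309, and -0.73 ± 1.06, adjusted p = 0.606).

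Between brain and blood on day 5, 3 of 9 receptor genes were called higher in brain and 3 lower, where 33.6% of all genes were called higher and 14.3% lower (4428 and 3159 with TMM scaling, against 5123 and 2183). Against blood on day 1 the receptor counts were 5 higher and 4 lower in brain, where 37.3% of all genes were called higher and 14.1% lower. For the same genes edgeR called 1 higher and 4 lower, and DESeq2 4 and 3. Against blood on day 5 the higher genes were Itgb5 (2.87 ± 0.72, adjusted p = 0.00205), Itga8 (5.62 ± 1.15, adjusted p = 2.68e-04) and Itga9 (5.24 ± 1.00, adjusted p = 1.31e-04). The lower genes in that comparison were Cd44 (-2.92 ± 0.43, adjusted p = 5.01e-06), Itgb3 (-2.86 ± 0.55, adjusted p = 1.44e-04) and Itga4 (-4.41 ± 0.93, adjusted p = 3.83e-04). The low ILC2 marker sums and high sums of brain cells given above apply to these counts, and their part was not tested.

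**Figure D3:**
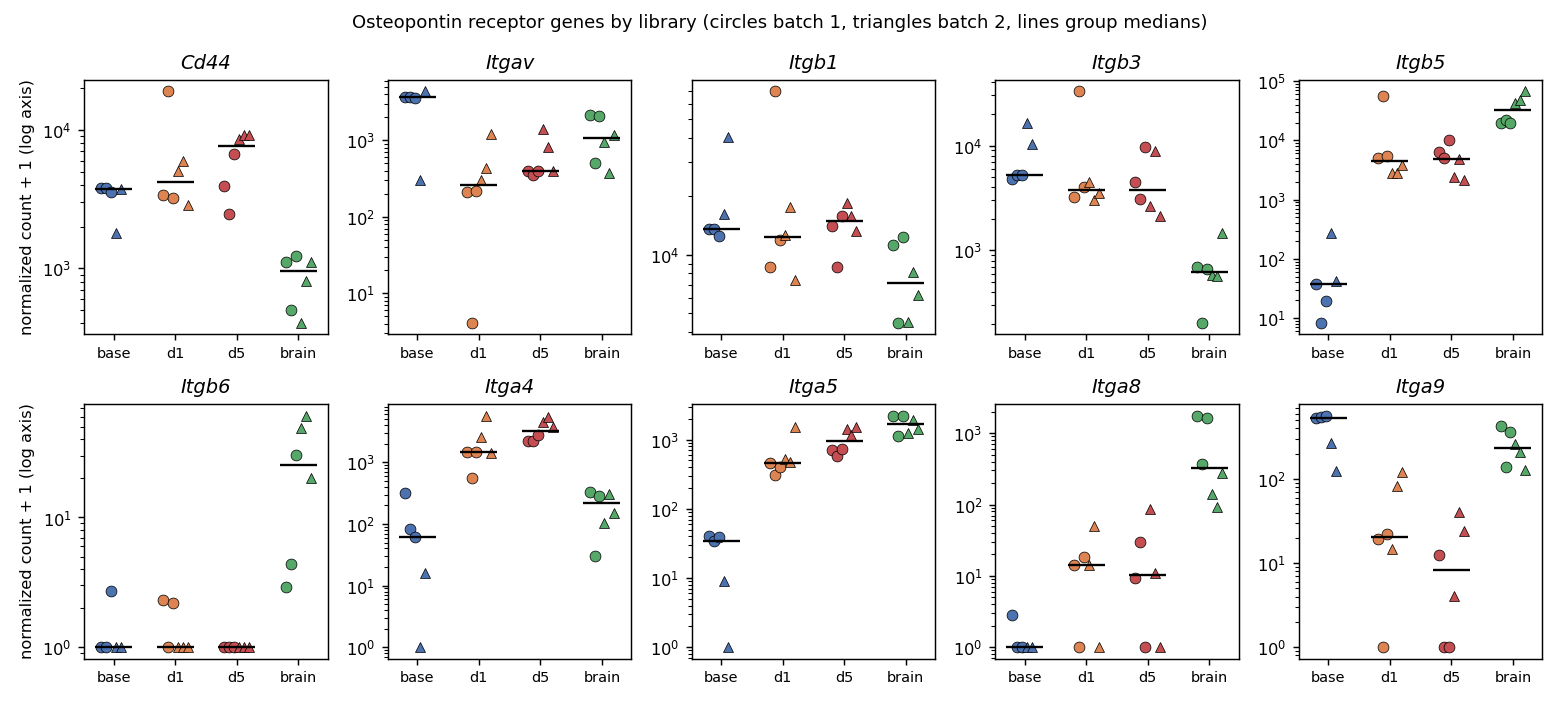
Normalized count plus 1 of the 10 receptor genes in each library on log axes, by group (base, culture baseline; d1 and d5, blood on days 1 and 5; brain, brain on day 5); circles are batch 1, triangles batch 2 and lines group medians. Cd44 and Itgb3 are lowest in brain, and Itgb5 is at most 268 in the baseline and at least 19406 in brain.

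The enzymes that cut, phosphorylate, dephosphorylate or cross-link osteopontin were listed as 13 genes, of which 10 are in the table and entered the test. F2, Plg and Mmp7 are not analysed here. From culture to blood on day 1, 6 of 10 rose and 0 fell, where 18.1% of all genes rose and 14% fell. None had a negative difference with an unadjusted p under 0.05 in limma, and edgeR and DESeq2 called 0 lower. The median was 3.82, or 4.07 with a gene at 0 in the baseline set to its bound, against 0.04 over all genes. Acp5, the tartrate-resistant phosphatase that removes phosphate from osteopontin, had 655 to 2952 in the baseline and 5183 to 10533 in blood on day 1, and rose by 2.97 ± 0.40 (adjusted p = 3.93e-06). F13a1, the coagulation factor XIII chain that platelets and monocytes carry, rose by 7.50 ± 1.06 (adjusted p = 7.83e-06), Mmp9 by 6.68 ± 1.05 (adjusted p = 3.22e-05), Fam20c by 5.67 ± 0.56 (adjusted p = 4.23e-08) and the transglutaminase Tgm2 by 5.94 ± 0.76 (adjusted p = 1.92e-06). The platelet sums given above differ between the same groups, and their part was not tested.

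In brain against the baseline, 8 of 10 enzymes rose and 1 fell, where 37.5% of all genes rose and 11.7% fell. The median was 6.22, against 0.67 over all genes. The fibroblast and mural marker sum was 444 to 1293 in the baseline, where Col3a1, Pdgfrb and Rgs5 were at 0, and 69654 to 234682 in brain, and its part was not tested. Mmp2, a gelatinase of fibroblasts and mural cells, had no read in the baseline and 6870 to 11294 in brain. This was at least 2346-fold higher against a floor of 3 reads per library, and at least 1758-fold in batch 1 alone (adjusted p = 1.29e-08 in limma). Ctsd, a lysosomal protease that also cleaves osteopontin, had 70874 to 152345 in the baseline and 386385 to 1149455 in brain, and rose by 2.75 ± 0.40 (adjusted p = 3.67e-06). Mmp3 rose by 8.67 ± 0.88 (adjusted p = 1.60e-08), the macrophage elastase Mmp12 by 7.42 ± 0.91 (adjusted p = 3.31e-07) and Fam20c by 9.66 ± 0.56 (adjusted p = 1.49e-12). Casp8 fell by 1.27 (SE 0.36, adjusted p = 0.0046), and Acp5 did not pass (-0.49 ± 0.40, adjusted p = 0.338).

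Between brain and blood on day 5, 6 of 10 enzymes were called higher in brain and 4 lower, where 33.6% of all genes were higher and 14.3% lower. Mmp12 had no read in blood on day 5 and a mean of 855 in brain, at least 283-fold higher on the same floor and at least 206-fold in batch 1. Mmp9, an enzyme that neutrophils store, was lower in brain (log2 difference -4.40, SE 1.00, adjusted p = 7.99e-04), as was Acp5 (-3.23, SE 0.38, adjusted p = 1.97e-07). The lower calls of Casp8 and F13a1 were lost in 5 and 11 of 24 alternatives (adjusted p 0.00196 to 0.0906 and 4.19e-04 to 0.0883), and the higher call of Tgm2 in 7 (5.16e-04 to 0.0796). The neutrophil marker sum was 57996 to 578644 in blood on day 5 and 4076 to 21235 in brain, and its part was not tested.

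Spp1 belongs to the SIBLING family (small integrin-binding ligands of bone and teeth), whose genes form a cluster on the same chromosome. Of 4 other members listed, Dmp1 and Ibsp are in the table, and Dspp and Mepe are not analysed here. Both had low levels in every group. Dmp1, a dentin matrix protein, had 0 to 3.65 in the baseline and 15.5 to 246 in brain, and rose by 4.99 ± 0.68 (adjusted p = 1.45e-06). Ibsp, bone sialoprotein, had 0 to 18.3 in the baseline and 0 to 78.4 in brain and did not pass (0.74 ± 1.28, adjusted p = 0.668). Per kilobase of exon, the mean level in brain was 103085 for Spp1, 36.4 for Dmp1 and 8.12 for Ibsp.

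The nearest genes in the table before Spp1 are Ibsp (a gap of 124 kb), Dmp1 (221 kb) and Gm26703 (315 kb), and after it Pkd2 (18.4 kb), Zfp951 (372 kb) and Abcg3 (494 kb). Pkd2, which encodes the cation channel polycystin-2, lies at chr5:104459450-104505819 and was low in the same groups as Spp1. Its mean was 670 in the baseline, 17.7 in blood on day 1, 15.4 in blood on day 5 and 1501 in brain. Its brain values did not follow those of Spp1: brain replicate 2, highest in Spp1, had 61.4, the lowest of the brain libraries, and the highest was 2821. Zfp951 and Abcg3 had means of 103 and 71.0 in brain, below their baseline means of 496 and 583.

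Factors with a described action on Spp1 were listed as 10 genes, and all entered the test. From culture to blood on day 1, 5 rose and 1 fell, with a median of 1.94, where 18.1% of all genes rose and 14% fell with a median of 0.04. Tbx21 (T-bet), the regulator of type 1 lymphocytes, had 0 to 85.0 in the baseline and 7005 to 17417 in blood on day 1, and rose by 10.42 ± 0.81 (adjusted p = 1.36e-09). Spi1 (PU.1), a factor of myeloid cells, rose by 5.46 ± 0.38 (adjusted p = 3.12e-10) and Ets1, a lymphocyte factor, by 3.95 ± 0.40 (adjusted p = 7.09e-08). Jun, a subunit of AP-1, fell by 3.19 (SE 0.29, adjusted p = 1.25e-08), while its partner Fos rose by 3.73 ± 0.44 (adjusted p = 6.13e-07). The sum of the 5 natural killer cell markers in the table, of 8 listed, was 3537 to 6510 in the baseline and 39735 to 60427 in blood on day 1, and its part was not tested.

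In brain against the baseline, 7 of the 10 factors rose and 1 fell, with a median of 3.04, where 37.5% of all genes rose and 11.7% fell with a median of 0.67. The call of Hif1a, the hypoxia factor, was lost in 5 of 23 alternatives (adjusted p 0.00311 to 0.189), among them TMM scaling and those without baseline replicate 4 or brain replicate 5. Fos had 40.0 to 426 in the baseline and 34892 to 125048 in brain, and rose by 8.60 ± 0.44 (adjusted p = 2.35e-13). Jun had 3674 to 7973 and 15118 to 27470, and rose by 2.21 ± 0.29 (adjusted p = 7.36e-07). Runx2, the bone-forming factor whose core motif is in the promoter window shown, fell by 2.98 (SE 0.76, adjusted p = 0.00201). Tbx21 had a mean of 9.74 in brain and did not pass (0.40 ± 0.81, adjusted p = 0.72).

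Between brain and blood on day 5, 6 factors were called higher in brain and 3 lower, where 33.6% of all genes were higher and 14.3% lower. Jun was 664 to 1466 in blood on day 5 and rose by 4.38 ± 0.27 (adjusted p = 6.04e-12). Mitf, a factor of melanocytes and osteoclasts, rose by 5.34 ± 1.25 (adjusted p = 0.00107). In brain it had 11.9 in replicate 2, highest in Spp1, and 596 to 999 in the other 5 libraries. Tbx21 was lower in brain (-10.02, SE 0.77, adjusted p = 1.96e-10). The lower call of Runx2 was lost in 9 of 24 alternatives (adjusted p 0.00712 to 0.112). Between the blood days Fos alone passed, higher on day 5 by 2.35 ± 0.42 (adjusted p = 0.0172), a call lost in 4 of 24 alternatives (adjusted p 1.39e-05 to 0.0679).

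**Figure D4:**
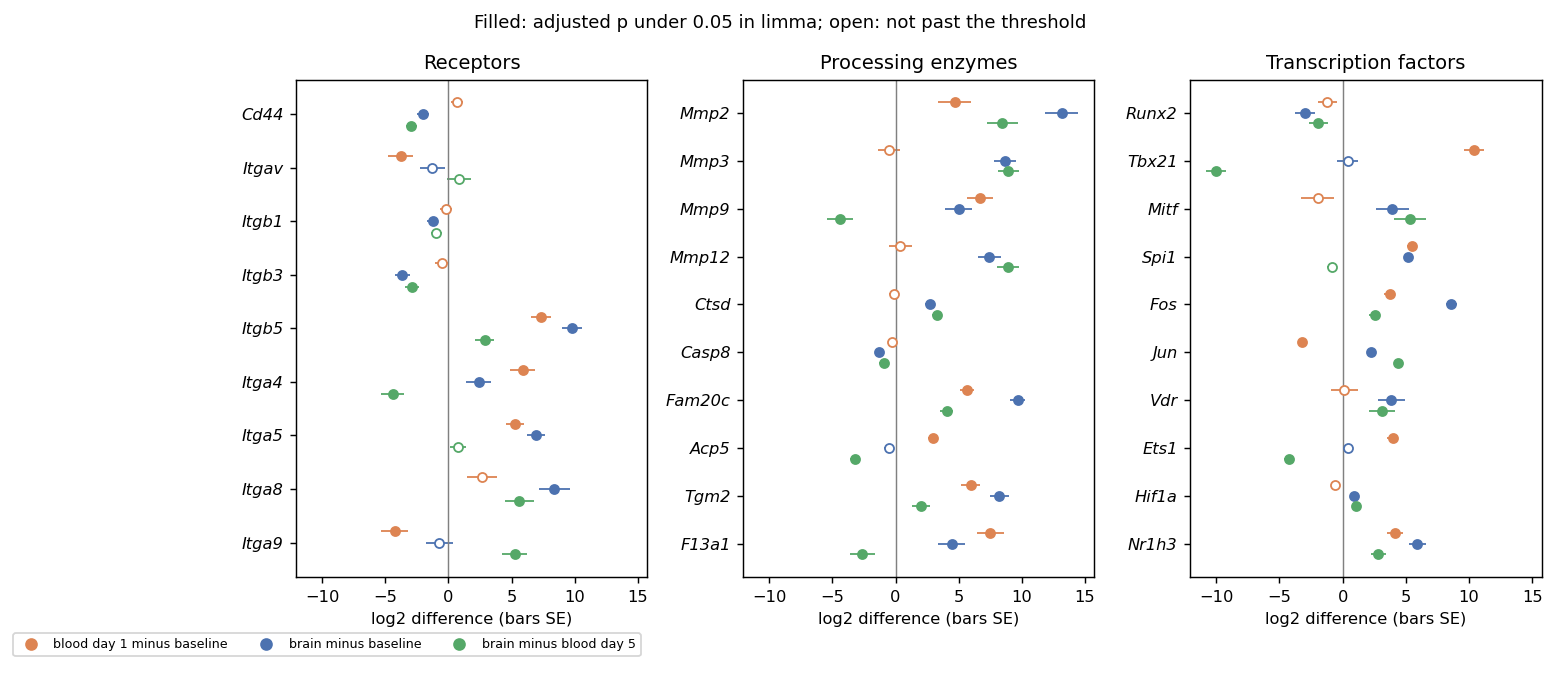
Fitted log2 differences with SE for receptors, processing enzymes and transcription factors in 3 comparisons; filled points passed an adjusted p of 0.05 in limma, and open points did not. The value for Mmp2 in the comparison of brain with the baseline, where the baseline has no read, depends on the pseudocount of 1.

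Spp1 is also a marker of lipid-associated macrophages and of microglia in diseased tissue, together with Gpnmb, Trem2, Apoe and others. Of 18 such companion genes listed, 17 entered the test. In brain against the baseline 15 rose and 2 fell, with a median of 6.66, where 37.5% of all genes rose and 11.7% fell with a median of 0.67. In blood on day 1 against the baseline 12 rose and 4 fell, with a median of 4.03, although Spp1 was lower there, where 18.1% of all genes rose and 14% fell with a median of 0.04. In brain against blood on day 5, 11 were called higher and 1 lower, with a median of 3.61, where 33.6% of all genes were higher and 14.3% lower with a median of 0.47.

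Gpnmb, a glycoprotein of lipid-laden macrophages, had 0 to 42.8 in the baseline and 39326.8, 73038.1, 39480.2, 37157.5, 11779.6 and 51493.7 in brain replicates 1 to 6. It was highest in replicate 2 and lowest in replicate 5, as Spp1 was, and rose by 13.06 ± 0.77 (adjusted p = 2.33e-12). Trem2, a lipid receptor of microglia, had 8.25 to 31.2 in the baseline and 8664 to 35514 in brain, and rose by 9.67 ± 0.50 (adjusted p = 2.67e-13). Apoe, the lipid carrier, rose by 9.90 ± 0.40 (adjusted p = 7.03e-15) to 266811 to 980483. So a high Spp1 level stood beside high Gpnmb and Trem2 in brain, and beside Gpnmb of at most 42.8 and Trem2 of at most 31.2 in the baseline.

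Lgals3, the galectin of activated macrophages, was a companion with the opposite change. It had 47212.3, 56261.7, 56289.6, 459411.7 and 177648.1 in baseline replicates 1 to 5, so that the batch 2 libraries were the higher ones, as for Spp1. It fell by 3.20 in blood on day 1 (SE 0.56, adjusted p = 1.16e-04) and with a log2 difference of -3.92 in brain (SE 0.56, adjusted p = 3.08e-06). The other companion that fell in brain was Cst7, an inhibitor of cathepsins, with a log2 difference of -2.82 (SE 0.29, adjusted p = 2.26e-08).

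Other matricellular proteins, secreted proteins that act on cells rather than build the matrix, were not high in the culture. Of 12 listed, 9 entered the test, and in brain against the baseline 9 rose and 0 fell, where 37.5% of all genes rose and 11.7% fell. None had a negative difference with an unadjusted p under 0.05 in limma, and edgeR and DESeq2 called 0 lower. The median was 10.21, against 0.67 over all genes. The fibroblast and mural marker sums given above differ between the same groups, and their part was not tested. In blood on day 1, 3 of 9 rose and 0 fell, with a median of 2.64, where 18.1% of all genes rose and 14% fell. By an unadjusted p, by edgeR and by DESeq2, 0 were lower there, and edgeR called 5 higher. The call of Sparc in blood on day 1 was lost in 7 of 23 alternatives (adjusted p 1.11e-04 to 0.243), among them those without blood day 1 replicate 2 or without baseline replicate 1, 2 or 3. Sparc (osteonectin) had 0 to 178 in the baseline and 51260 to 232001 in brain, and rose by 13.48 ± 1.26 (adjusted p = 4.77e-09). Per kilobase of exon, the mean level in brain was 103085 for Spp1, 22479 for Sparc, 4867 for Sparcl1 and 3602 for Vtn, while in the baseline it was 210266 for Spp1 and 11.1 for Sparc.

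Of 10 type 2 and repair effectors listed, 7 are in the table and 6 entered the test. In blood on day 1 against the baseline 1 rose and 3 fell, with a median of -3.06, where 18.1% of all genes rose and 14% fell with a median of 0.04. Those that fell, as Spp1 was lower, were the cytokine Il10 (-6.53 ± 1.17, adjusted p = 1.41e-04), the trefoil peptide Tff1 (-7.40 ± 1.20, adjusted p = 4.25e-05) and Calca, the gene of calcitonin gene-related peptide (-5.16 ± 0.89, adjusted p = 8.62e-05). The groups of Tff1 overlapped, with 7.3 in baseline replicate 2 and 21.0 in blood day 1 replicate 6. In brain against the baseline 2 rose and 2 fell, with a median of -1.65, where 37.5% of all genes rose and 11.7% fell. There Tff1 fell to 3 reads over the 6 brain libraries.

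Genes with the profile most like that of Spp1 were found by the root mean square difference of centred log2 values over the 23 libraries, among 12687 genes with a mean of at least 100 in a group. This measure was 4.28 for the median gene. The closest were Flrt3 at 1.42, Tnfrsf11b at 1.43, Bace2 at 1.46, Tmem45a at 1.51, Wwtr1 at 1.60 and Basp1 at 1.64. They were chosen by their likeness, so their levels are a description. Flrt3, Tnfrsf11b and Tmem45a were at or near 0 in most blood libraries, so their measure depends on the pseudocount of 1. Tnfrsf11b encodes osteoprotegerin, the decoy receptor of the osteoclast factor RANKL. Its means were 760 in the baseline, 0.977 in blood on day 1 and 683 in brain, and it was at 0 in all libraries of blood on day 5. Flrt3, a cell adhesion protein, had means of 412, 7.66, 0 and 459 in the same order. Basp1, a membrane-bound signalling protein, had 17186, 144, 93.2 and 2614. Wwtr1 (TAZ), a co-activator of the Hippo pathway, had 3252 in the baseline, 130 in blood on day 1 and 1424 in brain. The blood day 1 means of Flrt3 and Wwtr1 came mostly from replicate 2, at 43.3 and 647.1. Per kilobase of exon, Spp1 had 210266 in the baseline and 103085 in brain, against 8554 and 1301 for Basp1, the highest of the 6 in both groups. Its blood level was above 0 in every library.

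**Figure D5:**
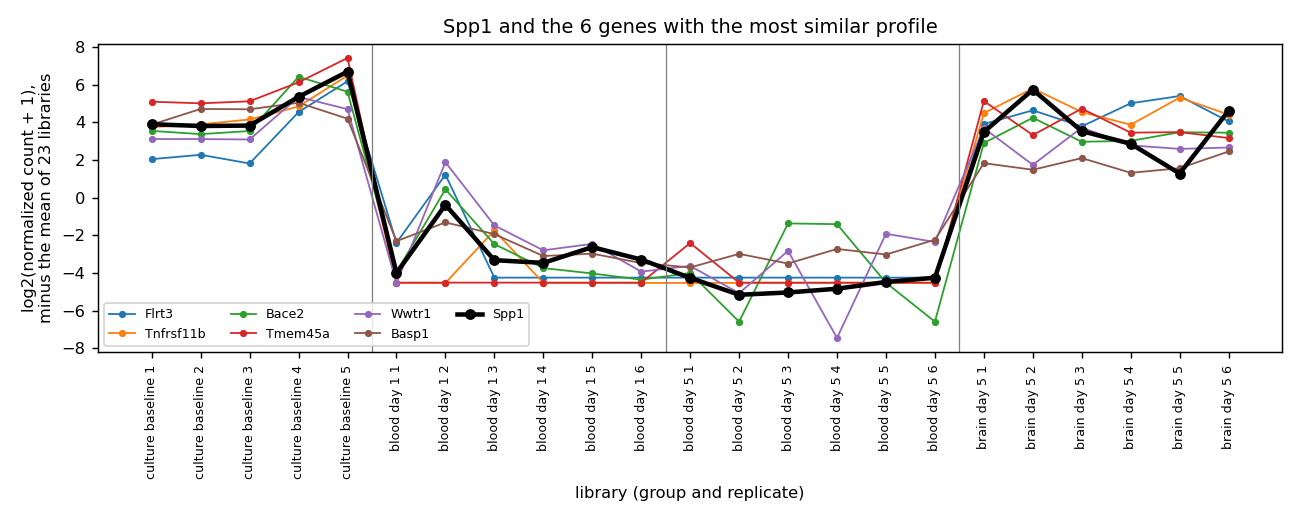
Log2(normalized count + 1) of Spp1 and of the 6 genes with the most similar profile, each minus its mean over the 23 libraries. Lines join all libraries of a gene, also across groups, only to guide the eye, and replicates have no order. All 7 genes are high in the baseline and the brain and low in the blood.

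A pattern noticed after the values were seen was counted over all genes. Every baseline and every brain library was above every blood library for 258 of the 15268 genes tested (1.69%). Ranked by the lowest normalized count among the baseline and brain libraries, which is not per length, Spp1 came 1st, at 22426.3, followed by Pld3, a lysosomal nuclease, at 14251. Ranked by the gap on the log2 scale it came in place 48, with 1.67 against a median of 0.62, its highest blood library being blood day 1 replicate 2. Among those 258 genes, 52 had a lowest value of at least 1000, among them the amino acid transporter chain Slc3a2, the glucose transporter Slc2a1, the metallothionein Mt1 and Jun.

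Within the 6 brain libraries alone, a set also chosen after the values were seen, the closest of 11801 genes were Aoc1 at 0.399, Lgals3 at 0.406, Ndc80 at 0.471, Klk8 at 0.487, Emp3 at 0.537 and Plin2 at 0.549, against a median of 1.63. Lgals3 had 5163.6, 23480.3, 4851.1, 5659.6, 2050.4 and 16005.3 in brain replicates 1 to 6, with replicates 2 and 6 the highest and replicate 5 the lowest, as for Spp1. Plin2, which coats lipid droplets, had 42341 in replicate 2, 23123 in replicate 6 and 4710 in replicate 5. This is a description of 6 libraries that differ in depth and in marker sums.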

How the data were processed

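Per the labels, libraries were made from poly-T selected RNA with random hexamers and sequenced in 150 bp pairs. The submitters' processing notes name fastp, HISAT2 2.0.5 and mm10. No source used here names the counting tool or its strand setting. The deposited signal values are normalized counts, that is, reads per gene over 1 size factor for each library. Whole reads were recovered from them: 100% of values were whole within 0.1 read. Of 19945 symbols, 19931 matched GENCODE M21. Promoter sequence is from RefSeq (GRCm38.p6).

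The 15268 genes reaching 10 in 5 or more libraries were tested in limma 3.58.1 (R 4.3.3) on log2(value + 1), with group and batch as terms and eBayes with trend and robust, two-sided, with Benjamini-Hochberg adjustment and a threshold of 0.05. Log2 differences and SE are from that fit and understate the change of low genes. edgeR 4.0.16 (quasi-likelihood, TMM) and DESeq2 1.42.0 on recovered reads, other pseudocounts and scalings, no filter, no batch term, a replicate block and left-out libraries were alternatives. PCR copies are not independent, so floors and intervals hold for counting error alone. Spp1 and all gene lists were chosen with earlier results of these data known. Named genes are Spp1, the members of the receptor, enzyme and SIBLING lists, up to 6 most abundant members of the other lists and up to 4 of each marker list, the 6 genes of most similar profile and the 3 nearest genes on each side. Trem2, Cst7, Runx2, Mitf, Trac, P2ry12, Siglech and the ILC2 markers Gata3, Il1rl1, Il7r and Rora were named after their values were seen.

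Replicate numbers recur across groups. Correlations of within-group deviations were -0.104 to 0.189 for same-numbered libraries and -0.167 to 0.12 for others, so numbers were not taken as pairs.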

Additional observations from a re-analysis of the deposited data

Results flagged for a closer look

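Of 44 sets of libraries (11 genes in 4 groups), those whose highest value was under 100 were skipped, among them all of Itgb6. In the rest, the highest or lowest library was compared with the others by its gap over the group's range, on the normalized count scale. Of the sets compared, which are fewer than 44, 12 were marked here. Chance marks about 1 in 20 only where values are independent and normally spread. The counts were compared without logs, and the baseline libraries of batch 1 were nearly alike. The 12 marks therefore cannot be set against that rate, and they are given as a description. For Spp1, whose levels are only described here, the library that stood apart was blood day 1 replicate 2 at 7068. The same library stood apart as the highest for 4 receptor genes, Cd44 at 18979, Itgb1 at 69677, Itgb3 at 32880 and Itgb5 at 55772. Its platelet markers were 5.10% of its normalized total, the most of the blood day 1 libraries, and their part was not tested. Blood day 1 replicate 6 stood apart for Itgav at 1218 and Itga5 at 1499. In the baseline, replicate 4 stood apart as low for Cd44 at 1809 and Itgav at 299 and as high for Itgb5 at 268, replicate 5 as high for Itgb1 at 40504, and replicate 1 as high for Itga4 at 316.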

How the results depend on the processing

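The log2 difference of Spp1 between brain and baseline depended on the batch: 0.41 in batch 1 alone and -3.10 in batch 2 alone, against -1.13. Leaving out 1 library at a time gave -1.62 to -0.58. The difference of blood day 1 minus baseline was -9.15 in batch 2 alone and -8.12 to -7.01 with 1 library left out. The other Spp1 differences kept their direction in all alternatives run. Replicate numbers as a block (replicate block) left brain minus baseline calls at 5687 higher and 1743 lower. TMM scaling moved the median of all genes in that comparison by -0.36. Against blood on day 5 the shift was -0.39 with equal library totals and -0.40 with TMM. In that comparison 59.6% of calls were higher with equal totals, against 70.1%.

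Between the blood days, 15 genes were called higher and 1 lower. Higher counts were 9 with only both groups, 9 with the closest libraries averaged, 5 in edgeR, 65 in DESeq2 and 6 to 20 with 1 library left out (6 without blood day 1 replicate 5, 9 without blood day 5 replicate 6). Lower counts were 0 with a pseudocount of 8, with the replicate block, with the closest averaged and in edgeR, 5 without the 4 libraries standing apart, 68 in DESeq2 and 0 to 6 with 1 library left out. Genes lower in blood on day 1 than in the baseline were 1370 with only both groups and 1207 with the closest averaged, against 2135, and receptor genes 1 and 0, against 2. In brain against the baseline edgeR called 2746 lower, against 1780. The 1 enzyme called lower between blood days was in DESeq2. Enzymes lower in brain than in blood on day 5 were 2 with the closest averaged and 2 to 4 with 1 library left out. Of 143 calls on 63 listed genes in the 4 comparisons rerun for single genes (blood day 1 and brain against the baseline, and blood day 5 against blood day 1 and brain), 120 held in every alternative counted. Each batch alone was not among these alternatives, so single-gene calls were not checked by batch. Where DESeq2 gave no adjusted p for a gene, that alternative was not counted. Blood day 5 libraries held 177 to 899 Spp1 reads, the smallest counts behind an Spp1 value.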
